A study of Mus musculus with 12 samples.

Results

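The 27 genes described here make, move and store cholesterol. They were chosen by function and comprise 18 synthesis enzymes, 3 regulators, 4 transport and uptake proteins and 2 enzymes that form or split cholesteryl esters. The choice was made with earlier results of these data known. All 27 were found among the transcripts measured, and all 27 passed the filter on dim probes, out of 18986 genes and transcripts that passed it. Each is read on its brightest probe. Of the 27, 19 had a value in all 12 samples, because spots that the scanner software marked as outliers were set aside in the other 8. Such spots were uneven or unlike replicate spots.

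Ovaries came from 12 C57BL/6J females of an inbred strain at 2 months of age, 4 biological replicates to a diet group. Control mice (C1 to C4) ate a normal diet, early-life mice (E1 to E4) ate food lacking vitamin D (VD) during early life alone, and peripubertal mice (P1 to P4) ate it around puberty alone. All 3 groups share strain, sex and age, and no transgene or drug is labelled. RNA from minced whole ovary was labelled with Cy3 (odd replicates) or Cy5 (even replicates) and read on 6 two-colour Agilent arrays, each holding 2 samples of 1 group.

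Cells make cholesterol from acetyl-CoA by the mevalonate pathway, which yields farnesyl diphosphate, and by the sterol steps that turn it into squalene, lanosterol and cholesterol. The transcription factor SREBP2 switches most of these enzymes on when sterol in the endoplasmic reticulum is low, so their transcripts are known to rise and fall together. In the ovary, theca, granulosa and luteal cells use cholesterol to make steroid hormones, and luteal cells take up much of it from lipoproteins.

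Per sample, the median signal stood at 147 to 331 intensity units, or 6.85 to 9.49 times background, and between 59.3% and 65.5% of probes were well above it. Precision is limited by there being 6 arrays. Markers of ovary were present: the oocyte genes Zp1, Zp2 and Bmp15 and the granulosa cell genes Foxl2 and Amh were well above background in all 12 samples. Slide 1 carried both the control and the early-life arrays, while slide 2 carried those of the peripubertal group, so the peripubertal diet and the slide it was read on cannot be told apart. The deposited value table disagrees with the scanner files: its 4 control columns hold the values of early-life channels and the reverse (correlation across features of at least 0.99977), and its 4 peripubertal columns resemble no channel (0.89669 at most). Group names here are those of the scanner files. If the table were right, every early-life difference from control would turn its sign, and the peripubertal difference from control would become the peripubertal difference from early life. The sign of each early-life difference from control below is open in this sense.

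Promoters are shown for 4 members that the results turn on: Hmgcs1, Idi1 and Mvk, enzymes whose transcripts varied together, and Insig1, which followed them in the control and early-life samples. For Hmgcs1 this rests on 6 samples, none early-life, with r = 0.87 with Idi1 and 0.66 with Mvk. Without P3 and C4 its r with Idi1 was 0.06 over 4 samples. Hmgcs1 joins acetyl units into HMG-CoA, Mvk adds the first phosphate to mevalonate, and Idi1 interconverts the isoprenoid building blocks. Insig1 holds the SREBP escort in the endoplasmic reticulum. Each run is the 250 bases before a start listed for the gene, from RefSeq on build GRCm38.p6, read 5′ to 3′ on the gene's strand. Capitals mark the SREBP-type element TCACNCCAC, the CCAAT box and the GC box GGGCGG, searched on both strands.
Hmgcs1, chr13:119690101-119690350, plus strand: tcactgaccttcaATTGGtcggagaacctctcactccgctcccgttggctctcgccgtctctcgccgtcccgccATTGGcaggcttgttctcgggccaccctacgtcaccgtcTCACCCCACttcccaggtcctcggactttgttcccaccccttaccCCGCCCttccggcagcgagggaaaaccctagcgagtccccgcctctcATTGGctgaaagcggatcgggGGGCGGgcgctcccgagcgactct
Idi1, chr13:8885356-8885605, plus strand: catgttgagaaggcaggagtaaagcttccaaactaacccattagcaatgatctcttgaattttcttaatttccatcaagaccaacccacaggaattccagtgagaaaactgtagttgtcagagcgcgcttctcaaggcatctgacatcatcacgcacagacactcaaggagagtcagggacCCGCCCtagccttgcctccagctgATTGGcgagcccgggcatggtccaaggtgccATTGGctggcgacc
Mvk, chr5:114444019-114444268, plus strand: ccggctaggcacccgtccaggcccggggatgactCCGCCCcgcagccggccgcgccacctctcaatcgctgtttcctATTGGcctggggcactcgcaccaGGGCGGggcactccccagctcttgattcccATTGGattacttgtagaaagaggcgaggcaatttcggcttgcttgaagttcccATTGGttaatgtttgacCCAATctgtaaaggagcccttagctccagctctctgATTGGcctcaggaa
Insig1, chr5:28071162-28071411, plus strand: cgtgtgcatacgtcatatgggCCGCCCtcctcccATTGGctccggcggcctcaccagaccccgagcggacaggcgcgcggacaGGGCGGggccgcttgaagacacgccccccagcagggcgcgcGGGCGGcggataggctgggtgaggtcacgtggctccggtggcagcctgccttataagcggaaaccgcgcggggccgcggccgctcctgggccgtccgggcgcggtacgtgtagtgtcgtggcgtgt
The table held promoters of 21 of the 27 members. A CCAAT box stood in the window of 14 of the 15 synthesis enzymes and 5 of the 6 other members held, against 33.8% of the 32851 promoter windows of all genes. The GC box stood in 13 of the 15 and in 4 of the 6, against 32.7% of all windows. The 9-base SREBP-type element was found in the Hmgcs1 window, where it begins 137 bases before the start, and in 1.05% of all windows. A shorter form, CACNCCA, which the longer one contains, was found in 6 of the 21 members (Acat2, Hmgcs1, Insig1, Msmo1, Soat1 and Srebf2) and in 15.6% of all windows. These matches describe letters in these windows. Genes with several starts had several windows and were counted once if any held the motif.

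Across the 12 ovaries most synthesis enzymes varied together. Idi1 measured 12.28, 13.40, 12.81 and 14.30 log2 units in C1 to C4, 12.05, 12.93, 12.39 and 11.58 in E1 to E4, and 11.93, 12.24, 14.44 and 12.90 in P1 to P4. C4 and P3 were high, E4 was lowest, and the 3 groups overlapped. Sc5d, a desaturase near the end of the pathway, measured 12.47, 13.42, 12.81 and 14.51 in C1 to C4, 11.89, 12.88, 12.28 and 11.71 in E1 to E4, and 12.63, 11.95, 13.44 and 12.35 in P1 to P4. C4 was its highest sample and E4 its lowest. Of the 13 synthesis enzymes with a value in every sample, 12 had C4 among their 2 highest samples, 8 had P3 there, and 8 had both.

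The swings were wide. Between the lowest and the highest sample, Dhcr7, which reduces the last double bond on the way to cholesterol, spanned 9.44-fold over its 9 values. Tm7sf2, a sterol reductase, spanned 9.23-fold, Idi1 7.27-fold and Sc5d 6.98-fold. Msmo1, Sqle, Fdps, Lss, Mvd and Nsdhl spanned 4.49-fold (Nsdhl) to 5.97-fold (Msmo1). Acat2, Cyp51, Hmgcs1, Pmvk, Mvk, Fdft1 and Ebp spanned 2.18-fold (Ebp) to 3.93-fold (Acat2). At the other end Ggps1, which makes the lipid attached to small GTPases, spanned 1.31-fold. Spans of genes with fewer than 12 values cover fewer samples. For 17 of the 18 synthesis enzymes the SD over samples was above the median SD of all genes, 0.204 log2 units.

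**Figure D1:**
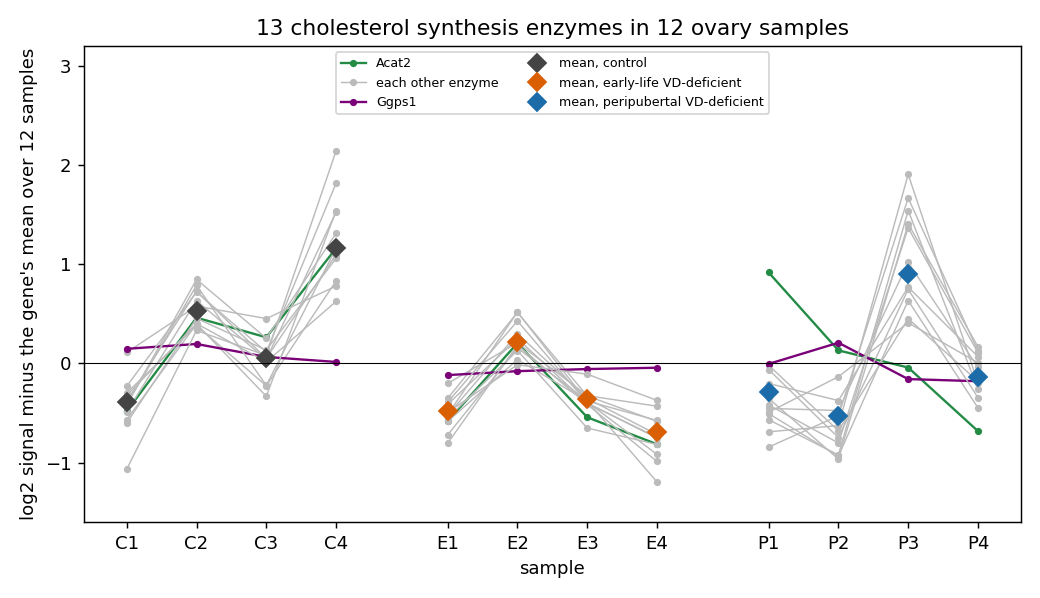
Log2 signal of the 13 synthesis enzymes with a value in every sample, minus each gene's mean over the 12 samples (y axis), for each sample by diet group (x axis). Grey points joined by lines are single enzymes, Acat2 and Ggps1 are coloured, and diamonds are the mean of the 13. Most lines run together, peak in C4 and P3 and dip in E4 and P2, while Ggps1 stays flat and Acat2 departs in the peripubertal samples.

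The median Pearson r between 2 of the 13 enzymes was 0.87 over 78 pairs, computed over 12 samples after removal of the mean of each dye. Over all pairs of the 14738 genes with every value it was 0.01, and 12.7% of those pairs exceeded an r of 0.5, against 76.9% of the enzyme pairs. Because the enzymes were chosen with earlier results of these data known, this contrast is a description and no independent test. Samples of 1 array share that array, so the correlation was also computed on the 6 array means, where the enzyme median was 0.82, and on the 6 differences within arrays, where it was 0.93. With the diet group means also removed it was 0.91, so the co-variation was present within groups. On slide 1 alone (8 samples) the median was 0.92. Without C4 and P3, the samples farthest from the median, it was 0.80 over 10 samples. With the set-aside spots restored, so that all 18 enzymes had 12 values, it was 0.89 over 153 pairs.

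Of the 13 enzymes, 11 correlated with one another at 0.75 to 0.99. The other 2 were Ggps1 and Acat2. Ggps1 measured 10.27 to 10.45 in control, 10.14 to 10.21 in early-life and 10.08 to 10.46 in peripubertal ovaries, and its r with the mean of the enzymes was -0.06. That r lay above those of 41.5% of all genes, whereas the 16 enzymes other than Ggps1 and Acat2 lay above at least 99.5%. The lowest of the 16 was Hmgcs1, with 6 values. Each of the 13 complete enzymes is itself part of that mean, which favours a high rank for it over genes outside the mean. Of the 3 Ggps1 probes the second brightest correlated with the brightest at only 0.21. Acat2, the thiolase that joins the first acetyl-CoA units, measured 8.75, 9.70, 9.50 and 10.40 in C1 to C4, 8.65, 9.44, 8.69 and 8.42 in E1 to E4, and 10.15, 9.37, 9.19 and 8.55 in P1 to P4. It followed Idi1 on slide 1 (r = 0.97, 8 samples) and not over all 12 samples (r = 0.45), since P1 was high and P3 was not.

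The gene outside the 27 whose values were most like the mean of the enzymes was Acat3 (r = 0.99 over 12 samples), a close relative of Acat2 in the same region of chromosome 17. The probes lie at chr17:13136482-13136541 (Acat2) and chr17:13118170-13118229 (Acat3) on build mm9, both on the minus strand. At the best alignment they shared 21 of 55 overlapping bases. Also highly alike were Pcyt2, an enzyme of phosphatidylethanolamine synthesis, Tmem135, Matk, Cst8, Ubxn8, Pik3c2g, Nfe2 and Acsl4, with r from 0.97 to 0.94. Among the least alike of 11082 named genes were Tnnt1 (r = -0.90), Arhgef10l, Slc16a1 and Cdsn (r = -0.86). These genes were ranked on the samples that gave the values.

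**Figure D2:**
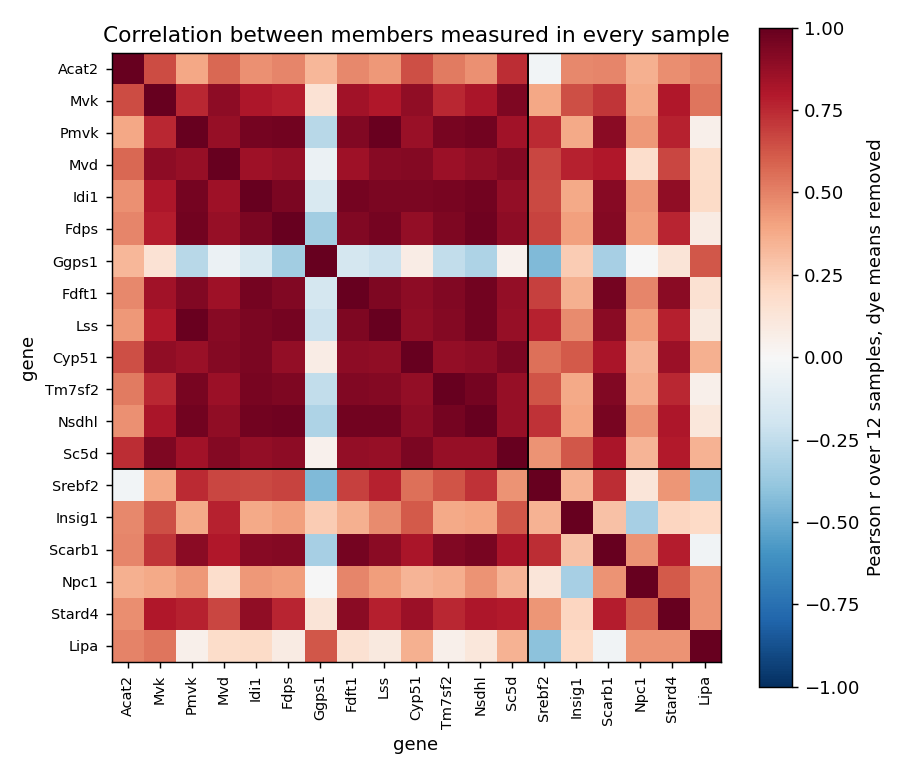
Pearson r over 12 samples, with dye means removed, between the 19 members that had a value in every sample (colour scale from -1 to 1). Black lines separate the 13 synthesis enzymes from Srebf2, Insig1, Scarb1, Npc1, Stard4 and Lipa. The enzymes form a red block broken by Acat2 and Ggps1, and Scarb1 and Stard4 join it.

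Outside the synthesis enzymes the members split. Scarb1, the receptor that takes cholesteryl ester from high-density lipoprotein into steroid-making cells, measured 14.73, 16.00, 15.53 and 16.44 in C1 to C4, 15.00, 15.76, 15.52 and 15.19 in E1 to E4, and 15.43, 15.13, 16.70 and 15.65 in P1 to P4. C1 was lowest, P3 and C4 were highest, and the groups overlapped. Scarb1 correlated with Idi1, the reference chosen after its values were seen, at r = 0.91 (permutation p = 0.00014, adjusted over 30 genes 0.00035, 12 samples, two-sided) and rho = 0.88 (permutation p = 0.00041, adjusted 0.00102). Without P3 and C4, the 2 samples where Idi1 was farthest from its median, r was 0.71. Stard4, a carrier that moves cholesterol between membranes, gave r = 0.89 and rho = 0.81 (permutation p = 0.00012 and 0.00233, adjusted 0.000327 and 0.00499, 12 samples), and r = 0.82 without P3 and C4. These p-values take the 12 samples as independent, although 2 share each array. Idi1 and the genes set against it were chosen with these data in view, and the adjustment covers those 30 genes alone. The p-values here and below therefore describe closeness in these samples and are no independent test. Soat1, which esterifies cholesterol for storage, had 8 values, none from C1, C3, C4 or P3, and an r of 0.87 with the mean of the enzymes. With Idi1 its r was 0.67 (permutation p = 0.0703, adjusted 0.0959) and its rho 0.52 (permutation p = 0.196, adjusted 0.235). With the set-aside spots restored, Soat1 measured 12.32 in C4 and 12.73 in P3, against 12.97 in C2 and 12.78 in E2.

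Regulators and lysosomal proteins followed less closely. Srebf2, which encodes SREBP2 itself, ranged from 9.72 to 10.60 and correlated with Idi1 at r = 0.66 (permutation p = 0.0198, adjusted 0.0313) and rho = 0.63 (permutation p = 0.0317, adjusted 0.0475) over 12 samples, with r = 0.52 without P3 and C4. Its second probe correlated with the first at r = -0.45 and was lower in all 4 early-life samples (8.56 to 8.75) than in all 4 control samples (8.81 to 9.19), so the gene has no single reading here. Scap, the escort of SREBP2, spanned 1.79-fold over 10 values and had r = 0.69 with the enzyme mean. Npc1 and Npc2, which export cholesterol from late endosomes, spanned 1.55-fold and 1.81-fold, with r = 0.46 (12 samples) and 0.65 (9 samples). Lipa, the lysosomal acid lipase, correlated with Idi1 at r = 0.19 (permutation p = 0.552, adjusted 0.591) and rho = 0.15 (permutation p = 0.653, adjusted 0.676) over 12 samples, and at r = 0.46 without P3 and C4.

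Insig1 parted from the enzymes in 1 group. It measured 8.60, 9.37, 9.09 and 9.53 in C1 to C4, 8.54, 9.25, 8.68 and 8.27 in E1 to E4, and 8.17, 7.90, 8.12 and 7.84 in P1 to P4. Every peripubertal value lay below every control and every early-life value, including P3, where Idi1 was at its highest. On slide 1 the r between Insig1 and Idi1 was 0.94 (8 samples), and over all 12 samples it was 0.38 (permutation p = 0.223, adjusted 0.248) with rho = 0.54 (permutation p = 0.0754, adjusted 0.108) and r = 0.60 without P3 and C4. The peripubertal samples are also those of slide 2.

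**Figure D3:**
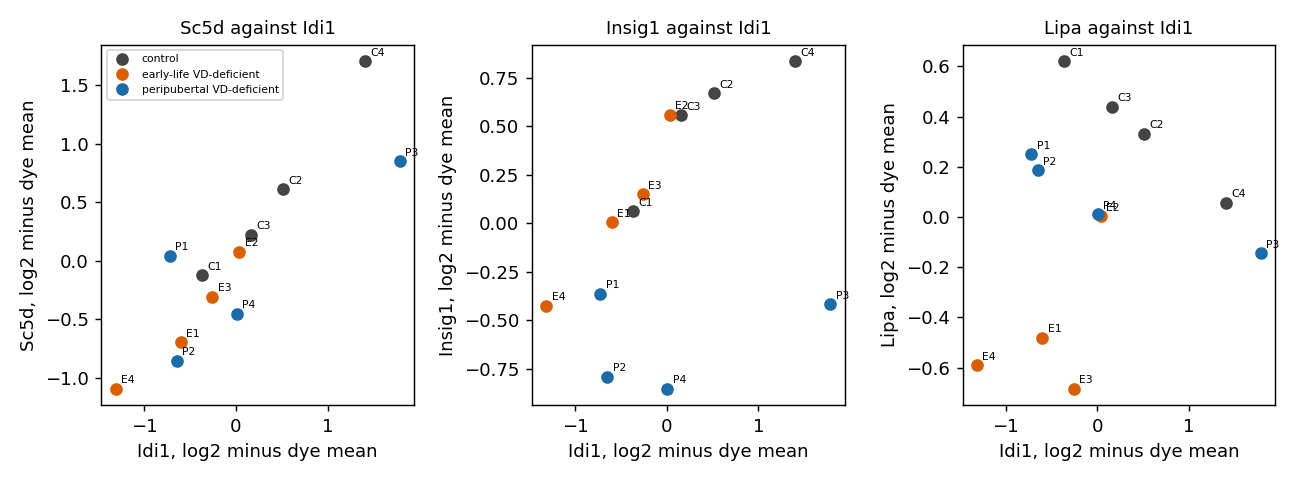
Sc5d, Insig1 and Lipa (y axes) against Idi1 (x axis), in log2 units after removal of dye means, 1 point per sample, coloured by diet group. Sc5d rises with Idi1 in all groups, Insig1 does so in control and early-life samples while the 4 peripubertal samples lie below that line, and Lipa shows no common line.

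No member passed the test between early-life and control ovaries, the comparison that asks what differs in the adult ovary after a shortage confined to early life. All 17 synthesis enzymes that could be tested had lower means in early-life ovaries, with a median log2 difference of -0.70, against -0.02 over all genes, of which 54.2% were below 0. The differences ran from -0.18 (Ggps1) to -1.11 (Sc5d). Because the enzymes move together, the 17 signs are not 17 separate observations. Calls used limma's moderated test, with dye as covariate and array as random block, at an adjusted p (Benjamini-Hochberg, all genes) under 0.05. It called 0 of 26 members and 0.0374% of all genes (7 of 18717). At an unadjusted p under 0.05 stood 3 of the 26 members and 13.9% of all genes.

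The size of the enzyme differences depended on single samples. For early life against control, the enzyme median stayed between -0.90 and -0.43 whichever 1 sample was left out. The mean of the 13 complete enzymes, relative to dye means, was -0.29, 0.44, 0.15 and 1.07 in C1 to C4, -0.39, 0.13, -0.27 and -0.78 in E1 to E4, and -0.19, -0.62, 0.99 and -0.23 in P1 to P4. The group means were 0.34 ± 0.57 in control, -0.33 ± 0.37 in early-life and -0.01 ± 0.70 in peripubertal ovaries (SD, n = 4 each), and the ranges of the 3 groups overlapped. Leaving out C4 alone took the median difference of the enzymes between peripubertal and control ovaries to 0.01 and that between early-life and control ovaries to -0.43, and leaving out P3 alone took that between early-life and peripubertal ovaries to -0.04. With both left out the median was -0.48 for early life against control, -0.45 for peripubertal against control and -0.05 for early life against peripubertal.

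Within the mevalonate and isoprenoid steps, Mvk and Ggps1 had early-life values that did not overlap the control values. Mvk measured 12.89, 13.36, 13.23 and 13.56 in C1 to C4, 12.19, 12.82, 12.40 and 12.20 in E1 to E4, and 12.76, 12.10, 13.23 and 12.60 in P1 to P4. All early-life values lay under all control values, with peripubertal values between and across. The log2 difference of early life from control was -0.85 ± 0.30 (SE, n = 4 and 4, limma adjusted p = 0.281), a 1.81-fold lower mean. Its second probe gave -1.05 (limma adjusted p = 0.327). Hmgcs1 had no early-life value because all 4 of its spots were set aside there. With those spots restored it measured 12.97, 14.53, 13.89 and 15.44 in C1 to C4, 13.56, 14.41, 13.69 and 13.26 in E1 to E4, and 14.41, 13.80, 15.57 and 14.60 in P1 to P4. These readings overlap between groups and again peak in C4 and P3. The kinase Pmvk, the decarboxylase Mvd, Idi1 and the farnesyl diphosphate synthase Fdps differed from control by -0.36 to -0.96, each with an SE of 0.42 to 0.69.

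The median difference was -0.70 over the 10 sterol steps and -0.69 over the 7 mevalonate and isoprenoid steps tested. Among the sterol steps Sc5d differed by -1.11 ± 0.58 (SE, n = 4 and 4, limma adjusted p = 0.418) and Cyp51, the lanosterol demethylase, by -0.70 ± 0.37 (SE, n = 4 and 4, limma adjusted p = 0.418). The squalene synthase Fdft1, the squalene epoxidase Sqle, the lanosterol synthase Lss and the sterol enzymes Tm7sf2, Msmo1, Nsdhl, Ebp and Dhcr7 differed by -0.43 (Fdft1) to -1.04 (Dhcr7), with limma adjusted p from 0.458 to 0.681. Dhcr7 had only 3 early-life and 2 control values (SE 1.09), Msmo1 had 4 and 2, and Sqle and Ebp had 4 and 3. In Fdft1, Lss, Cyp51, Tm7sf2, Nsdhl and Sc5d, which had 4 values in both groups, the early-life and control values overlapped.

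Lipa gave the smallest p of any member in this comparison. It measured 10.56, 10.03, 10.37 and 9.75 in C1 to C4, 9.45, 9.70, 9.25 and 9.10 in E1 to E4, and 10.18, 9.88, 9.79 and 9.70 in P1 to P4. The early-life values lay under all 8 others. The log2 difference from control was -0.80 ± 0.20 (SE, n = 4 and 4, limma adjusted p = 0.198), 1.74-fold lower. Stard4 measured 10.04, 10.92, 10.18 and 10.86 in C1 to C4, 9.12, 9.88, 9.85 and 9.29 in E1 to E4, and 9.79, 10.10, 11.10 and 10.42 in P1 to P4. Its early-life values were all under the control values, with a difference of -0.96 ± 0.38 (SE, n = 4 and 4, limma adjusted p = 0.319), but its second, dimmer probe gave -0.22. Of the 20 members with 4 values in both groups, 4 (Mvk, Ggps1, Stard4 and Lipa) had every early-life value under every control value, and 9.52% of all genes did. None had every early-life value above, as 2.79% of genes had. On the second brightest probe the 2 groups overlapped for Ggps1 (9.61 in E4, 9.58 in C2) and for Stard4 (7.62 in E2, 7.34 in C4). Mvk stayed apart on its second probe, and Lipa had 1 probe.

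**Figure D4:**
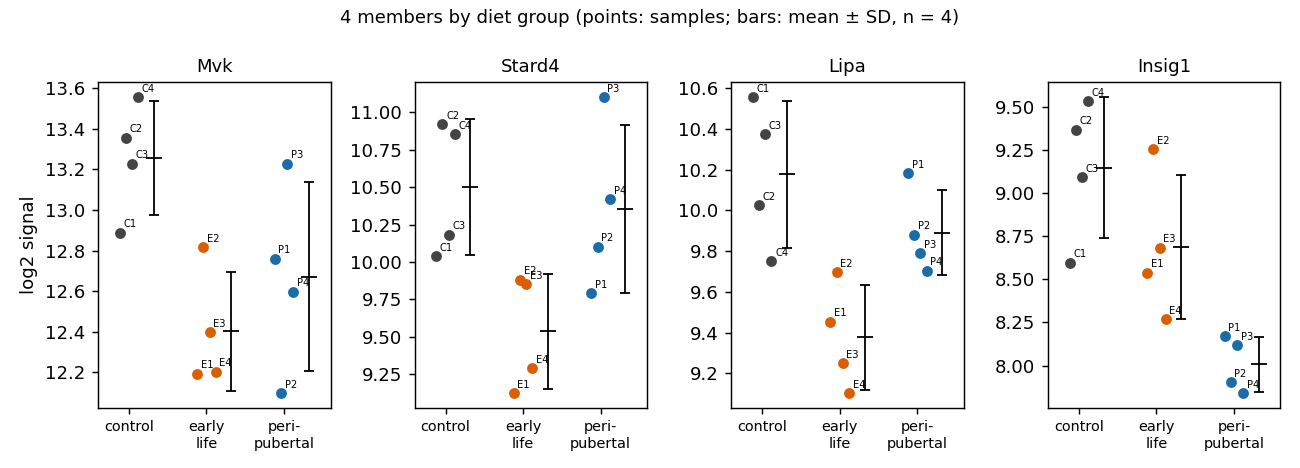
Log2 signal (y axis) of Mvk, Stard4, Lipa and Insig1 in each sample (points, named) by diet group (x axis), with the group mean and SD (bars, n = 4). Early-life values of Mvk, Stard4 and Lipa all lie under the control values, and peripubertal values of Insig1 lie under all others.

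The comparison of peripubertal deficiency with control asks the same of a shortage around puberty. No member of 27 was called, against 0.224% of all genes (42 of 18710). At an unadjusted p under 0.05 there was 1 member and 11.4% of genes. Of the 18 synthesis enzymes 16 had lower means and 2 (Msmo1 and Ebp) higher, with a median log2 difference of -0.25 against 0.01 over all genes. P3 set the spread: it gave the highest value measured in 9 of the 18 enzymes, while P2 was the lowest in several, among them Mvk, Mvd, Fdps, Lss and Nsdhl. For Dhcr7, among the 9, the C4 spot had been set aside and read 13.97 when restored, against 13.74 in P3. Insig1 differed by -1.14 ± 0.29 (SE, n = 4 and 4, limma adjusted p = 0.204), 2.20-fold lower, the smallest p of any member here. Its peripubertal mean was 8.01 ± 0.16 and its control mean 9.15 ± 0.41 (SD, n = 4 each). It was 1 of 20 members with every peripubertal value under every control value, a pattern of 4.34% of all genes, and no member had the reverse, which 5.22% of genes had.

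Early-life and peripubertal ovaries were compared to ask whether the time of the shortage matters. Of 26 members 0 were called, against 2.47% of all genes (465 of 18842), and 3 members and 23.7% of genes had an unadjusted p under 0.05. The synthesis enzymes were lower in early-life ovaries in 16 of 17 cases, with a median of -0.39 against -0.03 over all genes. Npc1 had the smallest p. It measured 10.05, 10.06, 9.95 and 9.84 in C1 to C4, 9.95, 9.81, 9.79 and 9.74 in E1 to E4, and 10.27, 9.93, 10.37 and 10.02 in P1 to P4. Early-life and peripubertal values overlapped slightly, at E1 and P2, and differed by -0.33 ± 0.10 (SE, n = 4 and 4, limma adjusted p = 0.106). Insig1 was higher in early-life ovaries by 0.68 ± 0.29 (SE, n = 4 and 4, limma adjusted p = 0.190), and for Lipa the difference was -0.51 ± 0.20 (SE, n = 4 and 4, limma adjusted p = 0.166), each with the groups apart. They were the 2 of 21 members so placed, Lipa among 14.7% of genes lower and Insig1 among 5.3% higher. Without E2, Lipa passed (limma adjusted p = 0.0385), in a fit that called 1551 of 18820 genes, against 465 of 18842 with all samples.

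**Figure D5:**
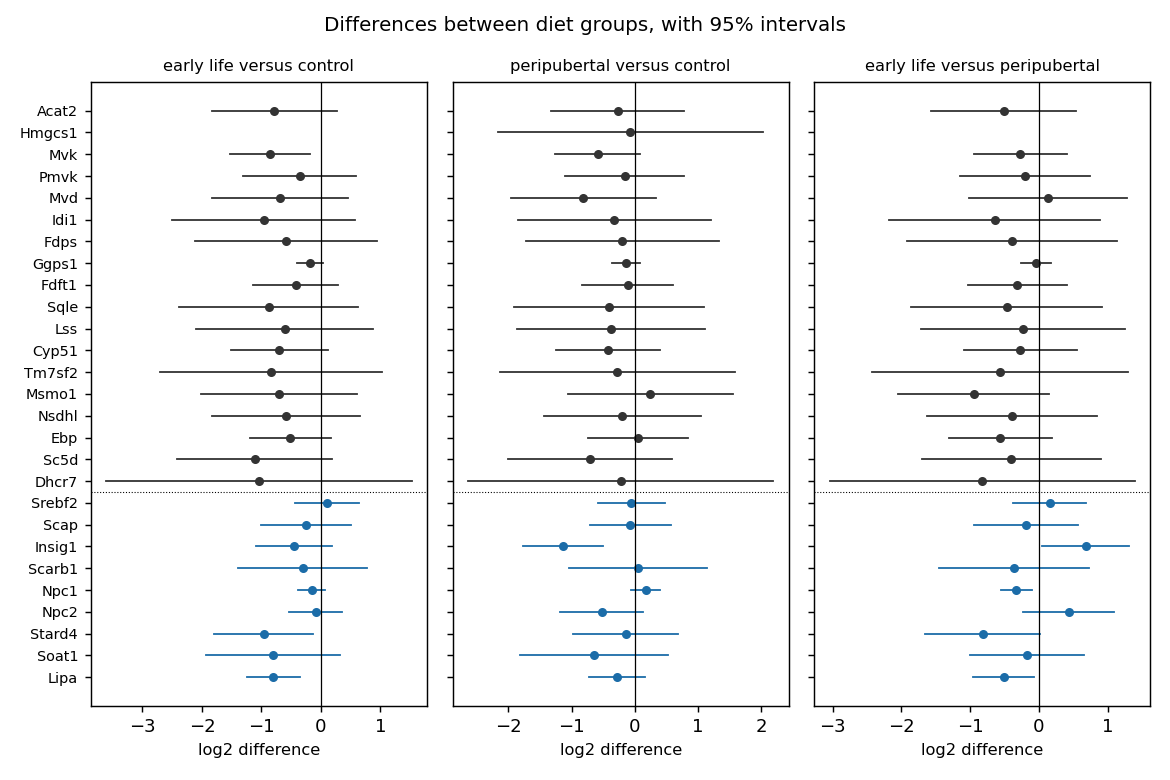
Log2 difference (x axes) of each of the 27 members (y axis) in the 3 comparisons, first group minus second, with 95% intervals from limma. Synthesis enzymes are dark, the other 9 members blue, and Hmgcs1 has no early-life value. Most intervals of the enzymes are wide and cross 0, while those of Lipa and Insig1 exclude 0 before adjustment in 2 comparisons each.

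Other genes of sterol and lipid supply gave no call. Of 17 other sterol and fatty acid genes under SREBP, 0 were called in any comparison, and the medians were -0.18 for early life against control, -0.05 for peripubertal against control and -0.31 for early life against peripubertal. Me1, the malic enzyme, measured 15.51 to 15.87 in control, 14.22 to 15.13 in early-life and 15.09 to 16.09 in peripubertal ovaries, and differed between early life and control by -1.17 ± 0.32 (SE, n = 4 and 4, limma adjusted p = 0.225). Tmem97, a sterol-regulated membrane protein, differed by -0.76 ± 0.24 (SE, n = 4 and 4, limma adjusted p = 0.244), Fads2 by -0.59 and Acaca by -0.17. Of 8 efflux and LXR genes, which act when sterol is in excess, 0 were called, with medians of -0.22, 0.16 and -0.46 in the same order. Cyp27a1, Nr1h3 and Ch25h had early-life minus peripubertal differences of -0.47, -0.73 and -0.86 (limma adjusted p = 0.0575, 0.0648 and 0.0834), and Mylip one of -0.36. Of 12 steroidogenic genes 0 were called, with medians of -0.21, 0.12 and -0.48. Fdx1, the electron donor of the side-chain cleavage enzyme, differed between early life and control by -1.28 ± 0.47 (SE, n = 2 and 4, limma adjusted p = 0.309), Fdxr by -0.84, Nr5a1 by -0.42 and Hsd3b1 by -0.09. Of 4 steroidogenic or luteal genes chosen after their values were seen, Star, which carries cholesterol into mitochondria, correlated with Idi1 at r = 0.96 (permutation p = 4e-05, adjusted 0.00015) and rho = 0.98 (permutation p = 6e-05, adjusted 0.00045) over 10 samples, and at r = 0.97 without P3 and C4. The side-chain cleavage enzyme Cyp11a1 gave r = 0.75 (permutation p = 0.00538, adjusted 0.00897) and rho = 0.64 (permutation p = 0.0278, adjusted 0.0439) over 12 samples, but r = 0.37 without P3 and C4. The luteinizing hormone receptor Lhcgr gave r = 0.61 (permutation p = 0.0331, adjusted 0.0496) and rho = 0.66 (permutation p = 0.0237, adjusted 0.0395), and r = 0.49 without them. Hsd3b1 gave r = 0.10 (permutation p = 0.766, adjusted 0.766) and rho = -0.04 (permutation p = 0.904, adjusted 0.904), and r = 0.0054 without them. The limits given for the p-values of Scarb1 and Stard4 hold here too, since the adjustment leaves out the genes these 4 were picked from. Of all genes, 11.4% had an r over 0.5 with the enzyme mean.

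Cell type markers moved with some of these values. The samples are bulk tissue, in which fewer cells of a type and less RNA per cell cannot be told apart. The mean of 3 of 6 luteal cell markers, relative to dye means, ran from -1.27 to 0.93 in control, -0.59 to 0.20 in early-life and -0.51 to 0.68 in peripubertal ovaries. That mean holds only the markers with every value and does not speak for the whole list. Of the 3 in it, Oxtr differed between peripubertal and control ovaries by -1.19 and Ptgfr by 1.25. Of those outside it, Akr1c18 measured 14.10 to 16.40 in 3 peripubertal and 11.01 to 11.32 in 2 control ovaries, a fitted difference of 4.20 (limma adjusted p = 0.318), and Prlr differed by 1.68 (limma adjusted p = 0.333) with 1 peripubertal value. Across the 12 samples the r of the luteal mean with the enzyme mean was 0.80, and 0.65 without C4 and P3. Steroidogenic genes (6 of 12) gave 0.77 and, without C4 and P3, 0.72, and granulosa cell markers (3 of 7) 0.59 and 0.79. Theca cell markers (3 of 5) gave 0.15 and 0.42, oocyte markers (4 of 7) 0.14 and 0.51, and endothelium markers (5 of 6) 0.52 and 0.21, so these 3 values depended on C4 and P3. Oviduct epithelium markers (6 of 8) gave -0.41, and -0.57 without C4 and P3, and ran from -0.34 to 2.55 in early-life, -1.15 to 0.68 in control and -1.55 to -0.87 in peripubertal ovaries. Adipocyte markers (5 of 7) gave -0.60, and -0.49 without them, and ran from 0.04 to 3.06 in early-life, -2.02 to -0.33 in control and -1.20 to 0.69 in peripubertal ovaries. Macrophage markers (7 of 8) gave -0.18, and -0.13 without them, and ran from -0.76 to -0.25 in early-life, -0.36 to 0.47 in control and 0.09 to 0.81 in peripubertal ovaries, and red blood cell markers (2 of 4) gave -0.29 and -0.32. These r values describe 12 samples that share arrays and carry no test. In the early-life against peripubertal comparison 4 macrophage markers and 1 endothelium marker were called lower and 1 oviduct marker higher in early life, and no marker was called in the others. The theca marker Insl3 was not analysed here and the adipocyte marker Lep was not above background often enough to be kept. The part of these cell types in the differences of the members was not tested.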

How the data were processed

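Analysis ran in R 4.3.3 with limma 3.58.1 and statmod 1.5.0. Per the file headers, positions are on mm9 and the scans were read by Agilent Feature Extraction 11.0.1.1. The deposited scanner files give each spot's mean signal and local background as intensity, and a processed signal used as an alternative. Log2 values with a column median of 0 make up the deposited value table, and how it was made is not given in the sources used here. It served to check sample names and as an alternative.

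From the intensities, background was removed by normexp (offset 50). Loess then scaled dyes within an array and Aquantile scaled across arrays, which gave 1 log2 value per probe and sample. Outlier spots (2.16% to 4.28% of a channel) were left out, and 4.63% of values are therefore missing. A probe had to be well above background in 4 or more samples, and each gene was read on its brightest such probe. Probes took names from RefSeq by accession (27234), symbol (3576) or synonym (565), and 8054 kept the name in the file.

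A single limma model held all 12 samples, the dye and a random array effect (correlation 0.285). Permutation tests of correlations drew 100000 permutations. Scripts were tested on simulated data. Alternatives changed background correction, scaling, probe filter, probe choice, model terms and samples. Named genes are all 27 members, up to 4 genes of each other sterol list with the smallest p, and the 10 most and 5 least alike genes, some of which are not reported here. The members and lists were chosen with earlier results of these data known. Restricting the correlation summary to enzymes with every value, the shorter promoter motif and the 250-base window were chosen after values were seen.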

Additional observations from a re-analysis of the deposited data

Results flagged for a closer look

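Of 69 sets of 4 samples (a member in a diet group), 3 held a sample far from the other 3 by Dixon's test at its 95% limit, and chance flags about 1 in 20 sets. Ebp measured 13.45 in E2, against 12.98 to 13.05 in the other early-life ovaries. Soat1 measured 12.78 in E2, against 11.75 to 11.92. Scap measured 15.34 in C1, against 15.69 to 15.75 in the other controls.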

How the results depend on the processing

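Exchanging the labels of the control and early-life arrays turned the median log2 difference of the synthesis enzymes to 0.70 (early life against control), 0.39 (peripubertal against control) and 0.25 (early life against peripubertal), and that of the other 9 members to 0.31, 0.19 and 0.15, by construction. In the deposited value table the early-life medians against control were 0.78 and 0.45. No setting called a member, except that Npc1 was called in early life against peripubertal without the array block and Lipa there without E2 (1 each). Over all genes those fits called 2070 of 18842 and 1551 of 18820. Leaving out 1 sample gave enzyme medians of -0.90 (without C1) to -0.43 (C4), -0.70 (P3) to 0.01 (C4) and -0.63 (E2) to -0.04 (P3) in the order above, medians of the other members of -0.62 (C1) to -0.16 (C2), -0.34 (P3) to 0.0033 (C2) and -0.49 (E2) to -0.028 (P1), and a median correlation of the enzymes of 0.82 (without C4) to 0.89. That correlation was 0.85 with all probes averaged, 0.93 in the deposited table, 0.91 with diet means removed, 0.82 on array means and 0.93 within arrays. It was 0.92 on slide 1, 0.96 on slide 2 and 0.80 without C4 and P3, an alternative chosen after seeing the data. Slide 2 held 4 samples, its enzyme pairs ran from -0.99 to 1, and no median over all genes was computed there, so its value says little. Calls over all genes, 7, 42 and 465, became 111, 146 and 2070 without the array block, 0, 0 and 1 without scaling between arrays, and 2 to 1551 for early life against peripubertal when 1 sample was left out. Samples sharing a replicate number gave r of -0.35 to 0.55, over 0.1 in 3 of 12 pairs. Those 3 were all control with early-life samples, C1 with E1 (0.22), C2 with E2 (0.55) and C4 with E4 (0.38), and C3 with E3 gave 0.07. Pairs with a peripubertal sample gave -0.35 to 0.08, so replicate numbers did not pair samples across all 3 groups. With the replicate block 0 members were called, all genes gave 0, 13 and 639 calls, and the enzyme medians were -0.70, -0.27 and -0.39. The causes of these changes were not tested.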
